A study of Mus musculus with 13 samples.

Results

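Erythroid and globin transcripts were followed across 13 Affymetrix GeneChip arrays of lumbar tissue that had been laser captured from E13.5 mouse embryos. The genes were 3 primitive globins, Hbb-y, Hbb-bh1 and Hba-x, and 5 erythroid genes of the fetal liver, Alas2, Klf1, Gata1, Slc4a1 and Epb42. They were taken by exact gene symbol from the platform annotation, which gave 15 probe sets for the 8 genes, of 45037 probe sets tested and 18193 genes named. The tissues were the presumptive intervertebral disc (IVD) and the cartilage of the adjacent vertebrae. Control vertebrae and control IVD had 3 arrays each, came from the same mice and carried the genotype Cre-;Tgfbr2lox/wt, so the controls also held a loxP allele. Mutant vertebrae had 3 arrays, with a genotype label spelled Cre+;Tgrbr2lox.lox, and mutant IVD had 4 arrays labelled Cre+;Tgfbr2lox/lox. In the mutants Cre was driven by a Col2a promoter, which is active in cartilage precursors and notochord, and cut out an exon of Tgfbr2, the type II receptor for TGF-β. Nothing in the labels ties the mutant vertebrae to the mutant IVD arrays of the same number.

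Red cells of the mouse embryo arise in separate waves. Primitive red cells come from the yolk sac, circulate with their nuclei and carry embryonic globins: ζ-globin is encoded by Hba-x, and the embryonic β-like globins by Hbb-y and Hbb-bh1. Definitive red cells mature in the fetal liver, where erythroblasts lie among hepatoblasts and make heme with Alas2, switch on red cell genes with the transcription factors Gata1 and Klf1, and build a membrane around the anion exchanger Slc4a1 and protein 4.2, the product of Epb42. At this stage blood in the vessels holds mostly primitive cells, and neither IVD nor vertebral cartilage is a site of red cell formation. In a bulk sample, fewer red cells and less of a transcript per red cell cannot be told apart.

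Red cell promoters are known for binding sites of GATA and CACCC-box factors, the families of Gata1 and Klf1. Promoter entries were found for 6 of the 8 genes, all but Hbb-bh1 and Slc4a1. The 4 sequences below show which of these letters lie near the start of genes from each class, and were chosen because each holds both motifs. Each is the 250 bases before the transcription start in RefSeq on the build GRCm38.p6, written 5′ to 3′ on the strand of the gene. Capitals mark GATAA and CACCC, or TTATC and GGGTG where the motif lies on the other strand. Hbb-y lies at chr7:103853208-103853457 on the minus strand, Hba-x at chr11:32276350-32276599, Alas2 at chrX:150547167-150547416 and Klf1 at chr8:84901732-84901981, the last 3 on the plus strand.
Hbb-y: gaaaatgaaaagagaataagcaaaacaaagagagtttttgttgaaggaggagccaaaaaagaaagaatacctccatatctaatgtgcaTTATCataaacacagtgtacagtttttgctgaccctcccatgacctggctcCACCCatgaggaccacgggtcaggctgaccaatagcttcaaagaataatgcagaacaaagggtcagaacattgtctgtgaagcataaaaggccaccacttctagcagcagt
Hba-x: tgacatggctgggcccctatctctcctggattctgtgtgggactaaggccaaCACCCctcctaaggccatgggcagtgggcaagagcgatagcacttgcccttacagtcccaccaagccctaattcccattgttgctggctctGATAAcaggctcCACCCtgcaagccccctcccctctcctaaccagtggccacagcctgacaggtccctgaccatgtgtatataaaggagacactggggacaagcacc
Alas2: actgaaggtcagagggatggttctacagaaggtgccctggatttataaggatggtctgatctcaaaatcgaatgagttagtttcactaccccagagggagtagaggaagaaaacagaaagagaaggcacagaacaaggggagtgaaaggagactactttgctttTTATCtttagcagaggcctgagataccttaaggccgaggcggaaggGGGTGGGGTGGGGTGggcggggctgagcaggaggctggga
Klf1: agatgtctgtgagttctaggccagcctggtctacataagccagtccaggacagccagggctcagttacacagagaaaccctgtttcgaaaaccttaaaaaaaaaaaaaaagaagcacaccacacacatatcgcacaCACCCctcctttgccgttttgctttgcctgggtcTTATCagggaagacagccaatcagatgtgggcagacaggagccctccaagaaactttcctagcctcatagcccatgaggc

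In Hbb-y the GATAA match began 162 bases and the CACCC match 111 bases before the start, and in Klf1 they began 80 and 114 bases before it. Hba-x held GATAA at 107 bases with CACCC at 95 and 198 bases, and Alas2 held GATAA at 86 bases and 3 adjacent copies of the CACCC box at 30, 35 and 40 bases. Gata1 held CACCC at 52 and 74 bases without GATAA in this window, and Epb42 held GATAA at 226 bases without CACCC. Over all 32851 windows of this length, 22.6% held GATAA, 52.0% held CACCC and 10.1% held both. Both motifs were thus in 2 of the 2 primitive genes and 2 of the 4 fetal liver genes with an entry. The files hold no measurement of binding at these promoters.

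All array values below are on a log2 scale relative to the median of that probe set over the 13 arrays, so that 0 is the middle array and 1 is a doubling. They carry no level, and a value of one gene cannot be set against that of another as an amount. Before the globins are described, several libraries need naming. Hepatocyte transcripts (10 genes, among them Alb, Afp, Apoa1 and Apoa2) averaged 5.73 and 5.55 in the control vertebrae and IVD arrays numbered 1. They averaged 3.68 in mutant IVD 4 but 2.84 in mutant IVD 3, and lay between -0.43 and 0.32 in the other 9 arrays. The first 4 are called the arrays with hepatocyte transcripts below, which does not mean that the other 9 held none. Matn1, a matrix protein of vertebral cartilage, was between 0.00 and 1.75 in the 6 vertebral arrays and at or below -2.23 in 6 of the 7 IVD arrays, but at 0.60 in the array labelled mutant IVD 3. That array also stood with the vertebrae in Pax1, at -0.9966, and in Pax9, at -0.83, both transcription factors of the sclerotome, against 0.38 or more and 0.13 or more in the other IVD arrays. Mutant vertebrae 1 had the widest spread over all probe sets, with a SD of 0.74 against 0.33 to 0.52 elsewhere. Tgfbr2 itself, on 3 probe sets, differed between mutant and control IVD by 0.25 ± 0.15, -0.02 ± 0.13 and 0.10 ± 0.48 (log2 difference ± SE), and between mutant and control vertebrae by 0.13 ± 0.16, -0.01 ± 0.14 and -0.84 ± 0.51; which exons these probes cover was not analysed here, so the deletion is not checked by them.

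**Figure D1:**
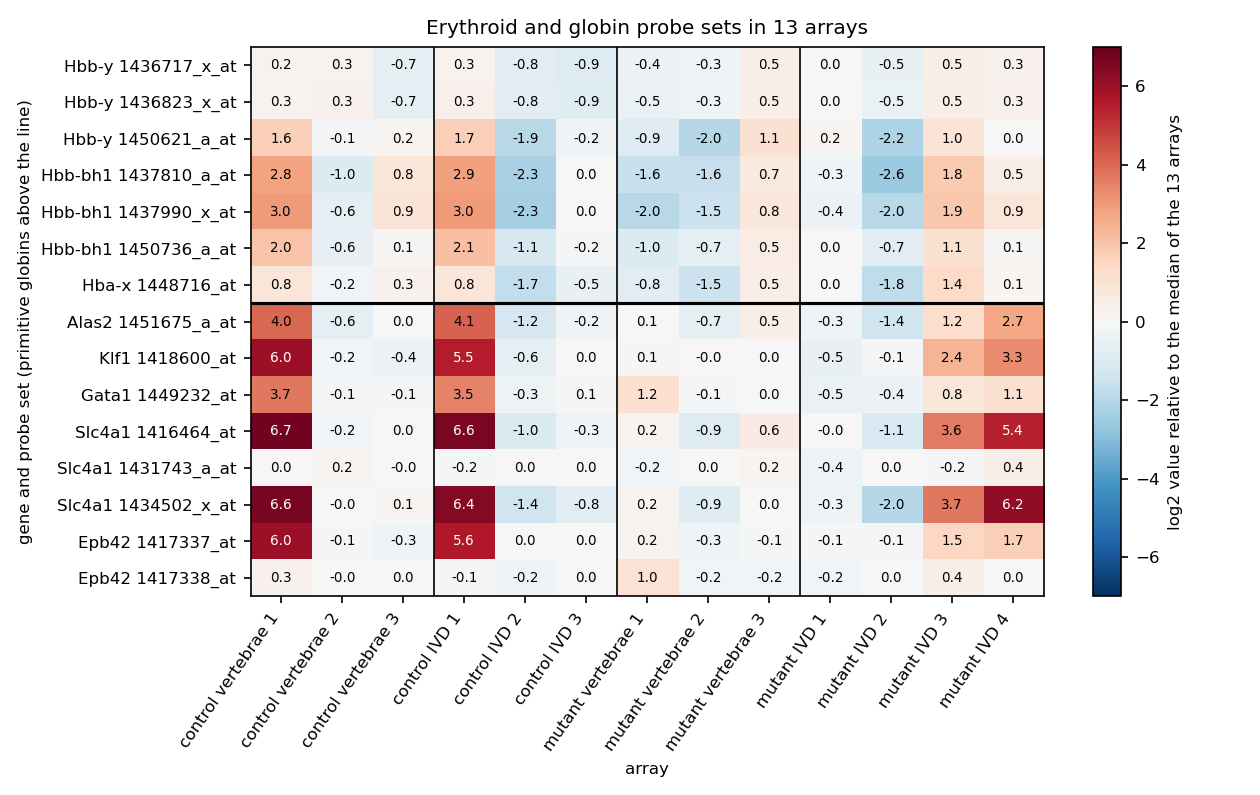
Log2 value relative to the median of the 13 arrays (colour and printed number) for the 15 probe sets (rows) in each array (columns, ordered by group). Below the black line, control vertebrae 1 and control IVD 1 are the 2 highest arrays in 6 of the 8 fetal liver probe sets. These arrays and mutant IVD 4 and 3 are the 4 highest in 5 of the 8. The primitive globins above the line also vary among the other 9 arrays.

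Among the primitive globins, Hba-x did not have its highest value in the arrays with most hepatocyte transcripts. On its single probe set (1448716_at) it read 0.84, -0.18 and 0.31 in control vertebrae 1 to 3, and 0.85, -1.74 and -0.54 in control IVD 1 to 3. In the mutants it read -0.77, -1.48 and 0.49 in vertebrae 1 to 3, and 0.00, -1.78, 1.37 and 0.12 in IVD 1 to 4. The highest array was mutant IVD 3, followed by the 2 control arrays numbered 1, and the 3 lowest were mutant IVD 2, control IVD 2 and mutant vertebrae 2. Values of the 4 groups overlapped.

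Hbb-bh1, the embryonic βh1-globin, had 3 probe sets that ran in parallel. On 1437810_a_at the control vertebrae read 2.80, -0.96 and 0.84 and the control IVD 2.89, -2.28 and 0.00. The mutant vertebrae read -1.57, -1.62 and 0.70, and the mutant IVD -0.29, -2.60, 1.85 and 0.46. The pair of control arrays numbered 1 was highest on all 3 probe sets of Hbb-bh1, and mutant IVD 3 was next. The total range was 5.49, wider than that of 99.74% of all probe sets. The other probe sets, 1437990_x_at and 1450736_a_at, had ranges of 5.31 and 3.19, with their highest value in control IVD 1, at 2.99 and 2.09, and their lowest in control IVD 2, at -2.32 and -1.10.

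Hbb-y, which encodes the embryonic εy-globin, gave an answer that depended on the probe set. On 1450621_a_at the values in control vertebrae were 1.65, -0.12 and 0.18, with 1.68, -1.95 and -0.23 in control IVD, -0.91, -1.995 and 1.07 in mutant vertebrae, and 0.16, -2.16, 0.97 and 0.00 in mutant IVD. This order was close to that of Hbb-bh1, with the control arrays numbered 1 on top and the arrays mutant IVD 2, mutant vertebrae 2 and control IVD 2 at the bottom. On 1436717_x_at the same arrays read 0.23, 0.27 and -0.70, then 0.26, -0.80 and -0.88, then -0.41, -0.32 and 0.46, and last 0.00, -0.50, 0.47 and 0.30. Here mutant IVD 3 and mutant vertebrae 3 were highest and the whole range was 1.35, close to the median range of 1.19 over all probe sets. The remaining probe set, 1436823_x_at, had a range of 1.36 and the same 2 highest and 3 lowest arrays as 1436717_x_at. The 3 probe sets of Hbb-y lay up to 1.67 apart within an array, in mutant vertebrae 2. Of the 7 probe sets of primitive globins, 4 had control vertebrae 1 and control IVD 1 as their 2 highest arrays.

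Alas2, the erythroid enzyme that starts heme synthesis, was higher in the arrays with hepatocyte transcripts than in any other array. It read 4.02, -0.62 and 0.00 in control vertebrae, 4.12, -1.16 and -0.24 in control IVD, 0.05, -0.68 and 0.46 in mutant vertebrae, and -0.27, -1.38, 1.25 and 2.73 in mutant IVD. Control vertebrae 1 and control IVD 1 differed by 0.10, and the other control arrays were at or below 0.00. Among the other 9 arrays Alas2 still spanned 1.84, and its 3 lowest arrays were those that were also lowest for Hba-x.

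Klf1, a zinc finger factor that activates adult β-globin and many red cell genes, read 5.99, -0.20 and -0.41 in control vertebrae and 5.52, -0.64 and 0.03 in control IVD. In mutant vertebrae it read 0.11, -0.01 and 0.00, and in mutant IVD -0.54, -0.08, 2.40 and 3.29. Klf1 was thus flat outside 4 arrays, with a range of 0.75 over the other 9, in which Hba-x spanned 2.26. Epb42, on 1417337_at, behaved alike, reading 5.99, -0.12 and -0.31 in control vertebrae, 5.60, 0.02 and 0.00 in control IVD, 0.23, -0.27 and -0.06 in mutant vertebrae, and -0.10, -0.12, 1.46 and 1.69 in mutant IVD. Its range over those 9 arrays was 0.53. Its other probe set, 1417338_at, did not show this order and was highest in mutant vertebrae 1, at 1.03, with a range of 1.28.

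Gata1, the X-linked master factor of red cell and megakaryocyte development, read 3.72, -0.07 and -0.06 in control vertebrae and 3.49, -0.33 and 0.07 in control IVD. It read 1.16, -0.07 and 0.00 in mutant vertebrae and -0.47, -0.40, 0.84 and 1.12 in mutant IVD. Mutant vertebrae 1, the array with the widest overall spread and a hepatocyte mean of 0.32, came in the third place for Gata1, just above mutant IVD 4.

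Slc4a1, the chloride and bicarbonate exchanger of the red cell membrane, had the widest range of any of the 8 genes. On 1416464_at it read 6.74, -0.21 and 0.00 in control vertebrae and 6.60, -1.01 and -0.30 in control IVD. In mutant vertebrae it read 0.19, -0.89 and 0.58, and in mutant IVD -0.03, -1.08, 3.65 and 5.43. The probe set 1434502_x_at followed the same order at the top, its control arrays numbered 1 at 6.64 in vertebrae and 6.40 in IVD, its mutant IVD 4 at 6.22 and mutant IVD 3 at 3.71, and its range was 8.65. The probe set 1431743_a_at was flat, with a range of 0.77, less than the median probe set. Within control IVD 1 the probe sets of Slc4a1 lay 6.75 apart, so the gene's mean over its probe sets understates what 2 of the 3 recorded.

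**Figure D2:**
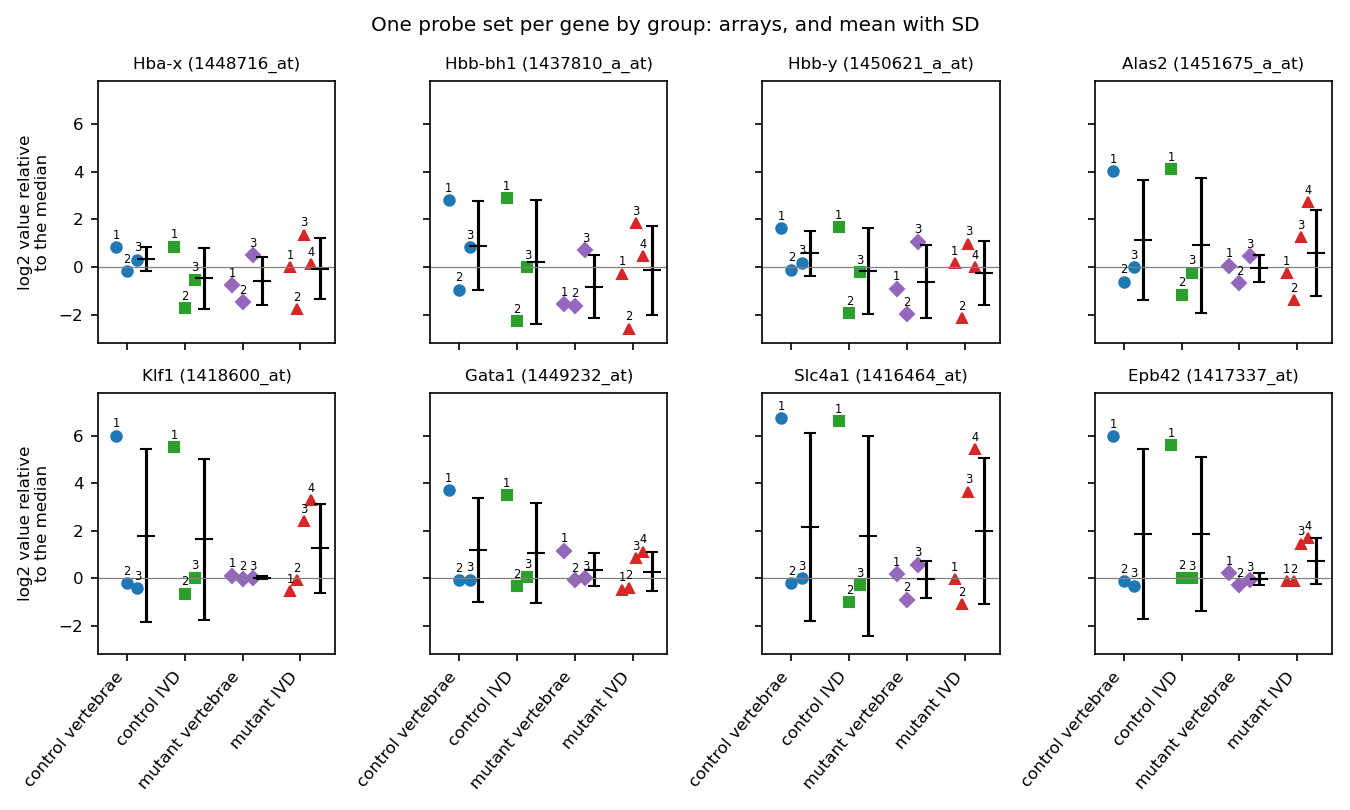
Log2 value relative to the probe set's median (vertical axis) by group (horizontal axis) for 1 probe set of each gene (the widest range, leaving out those ending in _x_at); numbered points are arrays, and the black bars are the group mean ± SD. For the fetal liver genes the SD of the control groups comes almost wholly from the arrays numbered 1, which for Slc4a1 sit at 6.74 and 6.60.

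Set side by side, the classes shared their top arrays in part and parted in order. Averaged over the 5 fetal liver genes, control vertebrae 1 stood at 4.27 and control IVD 1 at 4.03, mutant IVD 4 at 2.40 and mutant IVD 3 at 1.56, and the other 9 arrays between -0.61 and 0.40. The mean over the 3 primitive globins was 1.38, 1.42, 0.26 and 1.21 in these 4 arrays and ran from -1.60 to 0.61 in the others. The 4 arrays with hepatocyte transcripts were the 4 highest in 5 of the 8 probe sets of fetal liver genes and in 0 of the 7 of primitive globins. The primitive globin mean of mutant vertebrae 3, 0.61, exceeded that of mutant IVD 4. The hepatocyte mean of mutant vertebrae 3 was 0.03 and that of mutant IVD 4 was 3.68. Of the hepatocyte genes in mutant vertebrae 3, Afp read 1.43 and Alb 0.55, and the others lay between -0.70 and -0.08. In mutant IVD 4 Afp read 5.45 and Alb 5.54.

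Mutant IVD 3 and 4 differed in the order of the classes. Slc4a1 on 1416464_at was higher in mutant IVD 4, at 5.43 against 3.65, and so were Alas2, Klf1 and Gata1. The probe sets of Epb42 ran in opposite directions, at 1.69 in mutant IVD 4 against 1.46 on 1417337_at, and at 0.00 against 0.39 on 1417338_at. Hba-x was higher in mutant IVD 3, at 1.37 against 0.12, and so were all 3 probe sets of Hbb-bh1 and of Hbb-y. The fetal liver mean exceeded the primitive mean by 2.14 in mutant IVD 4, against 0.36 in mutant IVD 3. Outside the 4 arrays with hepatocyte transcripts this difference ran from -0.49 in mutant vertebrae 3 to 1.35 in mutant vertebrae 1. It sets positions relative to medians side by side, not amounts. The hepatocyte mean was also higher in mutant IVD 4, at 3.68 against 2.84 in mutant IVD 3. Afp, the fetal serum protein, read 5.45 in mutant IVD 4 and 5.08 in mutant IVD 3. Of the hepatocyte genes Apob alone went the other way, at 0.50 in mutant IVD 4 and 0.86 in mutant IVD 3. Neuronal transcripts (8 genes) averaged 3.52 in mutant IVD 3, against 0.72 in mutant IVD 4. Skeletal muscle transcripts (8 genes) averaged 0.33 and 2.40. The part of these tissues in the globin values was not tested.

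**Figure D3:**
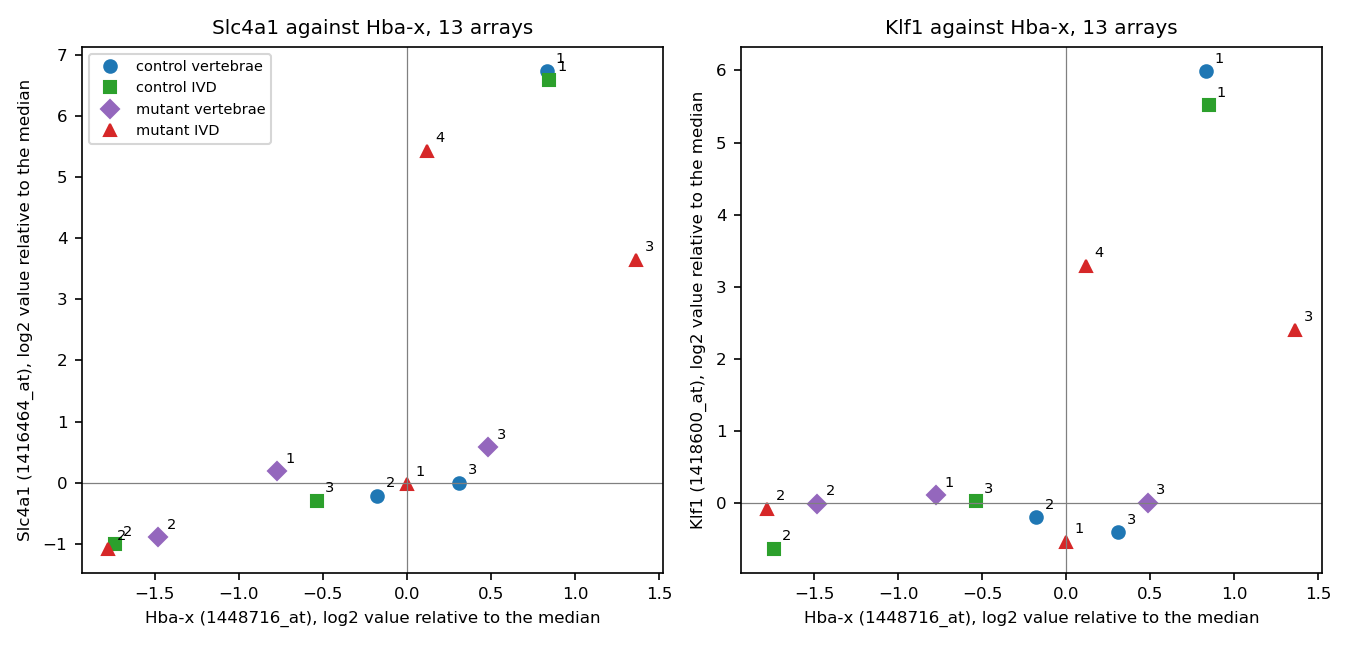
Slc4a1 (left) and Klf1 (right), vertical axes, against Hba-x, horizontal axes, each as log2 value relative to its median; points are the 13 arrays, with colour and shape for the group and the array number beside each. Along the bottom Hba-x runs from -1.78 to 0.49 over 9 arrays while Klf1 stays between -0.64 and 0.11.

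At the low end, control IVD 2, mutant vertebrae 2 and mutant IVD 2 were the 3 lowest arrays in 3 of the 7 primitive probe sets and in 3 of the 8 fetal liver probe sets, which were Alas2 and the 2 varying probe sets of Slc4a1. These arrays share the number 2 and come from 3 of the 4 groups. Control vertebrae 2 was not among them, with a primitive globin mean of -0.25 against -0.95 in mutant vertebrae 1. Mutant vertebrae 1 was among the 3 lowest on 1437990_x_at and 1450736_a_at of Hbb-bh1. Klf1, Gata1 and Epb42 did not single out control IVD 2, mutant vertebrae 2 and mutant IVD 2. Hepatocyte transcripts were at -0.32, -0.32 and -0.26 there, within the range of the other arrays with low hepatocyte means. Endothelial transcripts (8 genes, among them Pecam1, Cdh5, Kdr and Tek) averaged -0.45, -0.54 and -0.23 in these arrays, against -0.35 to 0.59 in the other 10. Neuronal transcripts had exactly these arrays as their 3 lowest, at -1.09, -1.07 and -1.04, and the next was -0.81 in control vertebrae 2. The part of either cell type in the low globin values was not tested.

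The wider erythroid program was described from 6 further lists, of which 49 genes were measured. Control vertebrae 1 and control IVD 1 were the 2 highest arrays for 37 of the 49, and the 4 arrays with hepatocyte transcripts were the 4 highest for 24. Of the 10 hepatocyte genes, both counts were 10 of 10. Over all probe sets the deviations of control vertebrae 1 and control IVD 1 from their group means correlated at 0.80. How many of all genes had these arrays on top was not counted. The counts of top arrays for lists and probe sets thus have no background share beside them. Of the erythroid transcription factors, Tal1 read 4.56 in control vertebrae 1 and 4.17 in control IVD 1, and Lmo2, its partner in the same complex, 4.42 and 3.95. Ldb1, the dimerising protein of that complex, read 0.50 and 0.44, and the repressor Gfi1b 2.09 and 2.12. Ldb1 is made in many cell types, and its values in the other arrays ran from -0.78 to 0.43.

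Heme synthesis beyond Alas2 was described from 9 measured genes. Alas1, the isoform of Alas2 found in all tissues, read 0.27 in control vertebrae 1 and 0.08 in control IVD 1. Alad, the enzyme after Alas2, read 3.23 and 2.90, Uros 1.07 and 0.84, and Urod 2.90 and 2.75. In all, 7 of 9 genes of heme synthesis had these 2 arrays on top.

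Of the red cell membrane genes, Rhag and Rhd, components of the Rh complex, read 6.33 and 4.37 in control vertebrae 1 and 4.14 and 2.95 in mutant IVD 4. Of the skeleton genes, Sptb encodes a spectrin chain and Ank1 a protein that links Slc4a1 to the spectrin net. They read 0.72 and 1.34 in control vertebrae 1, as means over 2 and 4 probe sets. Control vertebrae 1 and control IVD 1 led in 8 of the 13 membrane genes. Tfrc, the transferrin receptor, read 2.87 in control vertebrae 1 and 2.57 in control IVD 1, and Epor, the receptor for erythropoietin, 2.88 and 2.56. Steap3, an iron reductase, read 0.64 and 0.26, and the iron transporter Slc11a2 0.78 and 0.68. Among the enzymes, Car2 reached 6.74 in control vertebrae 1, Blvrb 4.21, Pklr 1.42 and Car1 1.04. All 9 enzymes and late erythroid genes had the control arrays numbered 1 on top.

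The adult globins were covered thinly. Hbb-b2 on 1427866_x_at read 4.74, -0.22 and 0.00 in control vertebrae, 5.20, -0.28 and -0.12 in control IVD, -0.31, -0.35 and 0.38 in mutant vertebrae, and 0.00, -0.17, 0.71 and 1.34 in mutant IVD. Its other probe set, 1427865_at, read -0.82 and -1.24 in the same control arrays numbered 1. Hba-a1 and Hba-a2, on 1 probe set each, stayed between -0.26 and 0.44 and between -0.73 and 0.46. A further 4 probe sets are annotated to several adult globin genes and were not used. Since these genes are nearly identical copies, their probe sets may share transcripts.

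**Figure D4:**
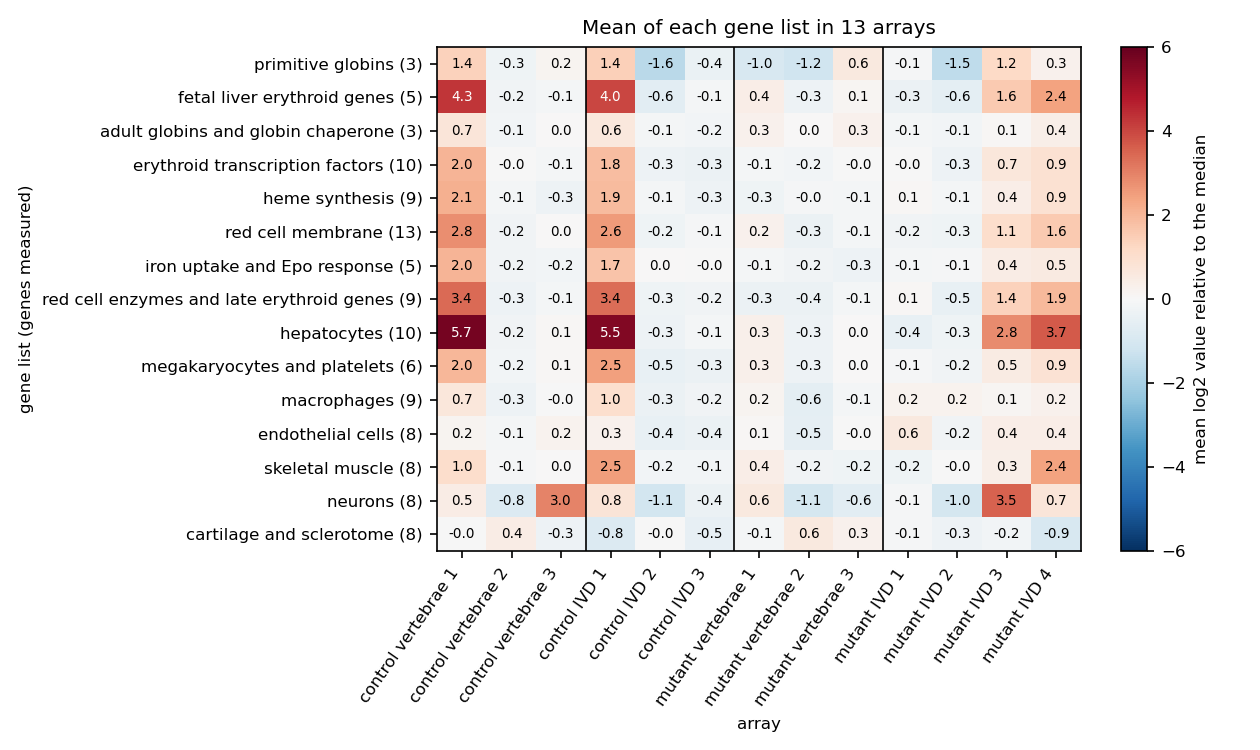
Mean log2 value relative to the median over the measured genes of each list (rows, with the number of genes) in each array (columns, ordered by group). Control vertebrae 1 and control IVD 1 are the highest columns in the erythroid rows as well as in the hepatocyte row, at 5.73 and 5.55. The neuron row is highest in mutant IVD 3 and control vertebrae 3.

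Other cell types were set beside these values. Of the megakaryocyte and platelet genes, Pf4 read 3.69 in control vertebrae 1 and 4.60 in control IVD 1, Itga2b 1.38 and 1.81, Gp9 0.28 and 0.41, and Gp1bb 0.03 and 0.00. Of the macrophage genes, Csf1r read 0.23 and 0.41, Cd68 0.00 and 0.42, Adgre1 0.02 and 0.36, and Mrc1 1.88 and 1.93. The control arrays numbered 1 were the top 2 for 4 of 6 megakaryocyte genes, 5 of 9 macrophage genes, and 0 of 8 endothelial, 0 of 8 neuronal, 0 of 8 muscle and 0 of 8 cartilage and sclerotome genes. The mean of the muscle transcripts was 2.48 in control IVD 1, the highest of the 13 arrays, and 1.05 in control vertebrae 1, below the 2.40 of mutant IVD 4 and above the other 10 arrays. Actc1, a muscle actin, read 5.62 in control IVD 1 and 4.08 in control vertebrae 1. The part of muscle tissue in the erythroid values was not tested. The cartilage and sclerotome mean was -0.01 in control vertebrae 1 and -0.82 in control IVD 1, within a range of -0.94 to 0.58. The deposited values carry no level, so whether a marker was at or near background in an array cannot be told.

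The genes closest in pattern to the fetal liver mean over the 13 arrays were Rhag (r = 0.99, rho = 0.91), Slc30a10 (r = 0.99, rho = 0.97), Serpina6 (r = 0.99, rho = 0.85), Rhd (r = 0.99, rho = 0.84) and Rgn (r = 0.99, rho = 0.90). Rhag and Rhd are red cell membrane genes, and Serpina6 and Rgn are made by hepatocytes. Those closest to the primitive mean were Spns2 (r = 0.90, rho = 0.92), Nrp1 (r = 0.89, rho = 0.87), Lmo2 (r = 0.89, rho = 0.91), Lyz1 (r = 0.89, rho = 0.93) and Mterf2 (r = 0.88, rho = 0.92). Spns2, a sphingosine-1-phosphate exporter, and Nrp1, a VEGF and semaphorin co-receptor, are known from endothelium. Both were highest in mutant IVD 3, at 1.24 and 1.58. The mean of the 8 endothelial genes was highest in mutant IVD 1, at 0.59, and was 0.40 in mutant IVD 3. The mean of the 8 neuronal genes was highest in mutant IVD 3, at 3.52. The part of either cell type in the primitive pattern was not tested. Lmo2, at 4.42, and Mterf2, at 0.66, were highest in control vertebrae 1, and Lyz1, which encodes a lysozyme, in control IVD 1, at 2.41. These are descriptions over 13 arrays that fall into clusters and share mice among the controls, and the r of the fetal liver mean rests on 4 arrays.

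The study asked how IVD and vertebrae differ and how loss of Tgfbr2 alters each tissue. For the 8 genes, limma's fit of the 4 groups over all probe sets, with Benjamini-Hochberg adjustment, called 0 of 15 probe sets at an adjusted p under 0.05 in each of 4 pairwise comparisons and in the interaction of tissue and genotype. At an unadjusted p under 0.05 the count was also 0 of 15 in each, and the unequal variance test, run on the 4 pairwise comparisons, called 0 of 15 at either threshold. Over all probe sets the adjusted calls came to 0% in control IVD against control vertebrae, 0% in mutant against control IVD, 0% in mutant against control vertebrae, 0.0155% in mutant IVD against mutant vertebrae and 0% in the interaction. The unadjusted calls were 2.45%, 3.13%, 2.61%, 8.07% and 1.37% in the same order. The members' counts therefore do not stand apart from a background at or close to 0 at the adjusted threshold. Between 82.3% and 96.8% of the variance of each member lay within groups, against a median of 78.9% over all probe sets.

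Between control tissues, 14 of 15 member probe sets were lower in IVD, by a median log2 difference of -0.39 (all probe sets, -0.02). Hba-x was 0.32 ± 0.51 in control vertebrae and -0.48 ± 1.29 in control IVD (mean ± SD, n = 3 each), a difference of -0.80 with a 95% interval of -2.52 to 0.92. Slc4a1 on 1416464_at differed by -0.41, with an interval of -5.46 to 4.63. The median over gene means of the fetal liver genes was -0.16, but 1.14 without control vertebrae 1, 0.59 without control IVD 2 and 0.34 without control IVD 3; that of the primitive globins, -0.59, stayed below 0 with any array left out. The smallest unadjusted p in limma was 0.316, for Hbb-y on 1436717_x_at, with an adjusted p of 1. The control arrays of the same number come together over all probe sets, so the differences within numbers are of use. For Hba-x, IVD minus vertebrae was 0.01 in number 1, -1.56 in number 2 and -0.85 in number 3. All 7 primitive probe sets were lower in IVD in numbers 2 and 3, and in number 1 all 7 differences lay between 0.01 and 0.09. Of the fetal liver genes, Alas2 gave 0.10, -0.54 and -0.24. Slc4a1 was lower in IVD in all 3 numbers on its 2 varying probe sets, at -0.14, -0.80 and -0.30 on 1416464_at and -0.24, -1.36 and -0.91 on 1434502_x_at. Klf1 gave -0.48, -0.44 and 0.43, Gata1 -0.23, -0.26 and 0.13, and Epb42 on 1417337_at -0.39, 0.14 and 0.31, so these probe sets were higher in IVD in number 3. With the number as a random block in the controls alone, limma called 0 of 15 member probe sets and 42 of 45037 in all, and 0 of 15 had an unadjusted p under 0.05; Hba-x had the smallest p, 0.0944, with an adjusted p of 0.543.

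**Figure D5:**
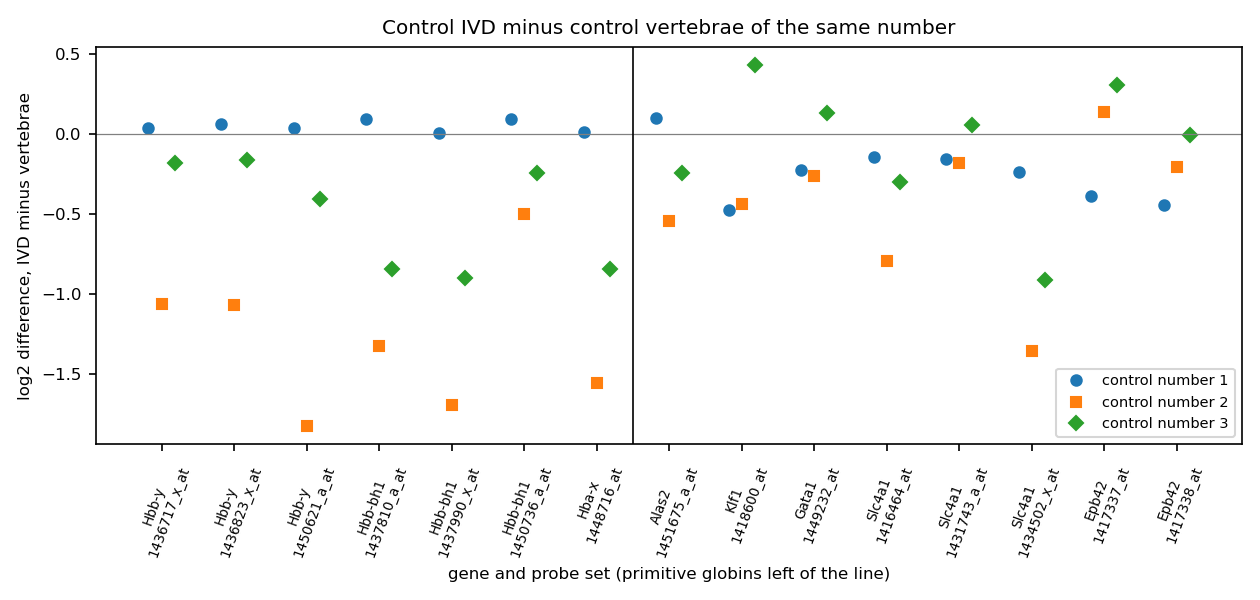
Log2 difference of control IVD minus control vertebrae of the same number (vertical axis) for each of the 15 probe sets (horizontal axis), with colour and shape for the number. For the primitive globins number 1 lies at 0.01 to 0.09, number 2 at -1.83 to -0.50 and number 3 between -0.90 and -0.16.

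Between mutant and control IVD, 7 of 15 probe sets were higher and the median log2 difference was -0.09 (all probe sets, 0.05). Hba-x was -0.07 ± 1.29 in mutant IVD (SD, n = 4), 0.40 above control IVD with a 95% interval of -1.20 to 2.01. Epb42 on 1417337_at gave the lowest value of the 15, -1.14 with an interval of -4.54 to 2.25, and Hbb-y on 1436717_x_at the highest, 0.54. The latter had the smallest unadjusted p in limma, 0.162, with an adjusted p of 1. Without control IVD 1, its p was 0.0275 and its adjusted p remained 1. Without mutant IVD 3, the array that stood with the vertebrae, the median over the primitive genes went from 0.32 to -0.08 and that over the fetal liver genes from -0.37 to -0.66. The primitive median was -0.23 without control IVD 2, and the fetal liver median 1.28 without control IVD 1 and 0.08 without mutant IVD 2. With every array kept, the fetal liver median was 0.16 after quantile normalization and 0.59 with array weights.

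Between mutant and control vertebrae, 14 of 15 probe sets were lower in the mutant, with a median of -1.18 (all probe sets, 0.05). Hba-x was -0.59 ± 0.996 in mutant vertebrae (SD, n = 3), a difference of -0.91 with an interval of -2.63 to 0.80. Klf1 differed by -1.76, from -5.75 to 2.22, and its mutant arrays lay between -0.01 and 0.11. The smallest p in limma was 0.175, for Hbb-bh1 on 1437990_x_at, with an adjusted p of 0.998. Control vertebrae 1 decided the fetal liver value: without it the median over those 5 genes went from -1.19 to 0.25, and that over the 3 primitive globins from -0.91 to -0.64. With the hepatocyte mean as a covariate the fetal liver median was 0.09. Hepatocyte genes were lower in mutant vertebrae in 10 of 10, with a median of -1.95, and limma called 0 of the 10. Their mean was 5.73 in control vertebrae 1, but -0.23 and 0.06 in control vertebrae 2 and 3. In mutant vertebrae 1 to 3 it was 0.32, -0.32 and 0.03.

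Between mutant IVD and mutant vertebrae, IVD was the higher tissue in 12 of 15 probe sets, at a median of 0.52 (all probe sets, -0.02). Slc4a1 on 1416464_at, at 1.99 ± 3.06 (SD, n = 4) against -0.04 ± 0.76 (SD, n = 3), had the smallest p in limma, 0.366, with an adjusted p of 0.83. Without mutant IVD 3 the median over the primitive genes went from 0.52 to 0.04, and without all 4 arrays with hepatocyte transcripts to -0.30, with -0.06 under the hepatocyte covariate. The median over the fetal liver genes, 0.64, went to 0.15 without mutant IVD 4, to -0.54 without the 4 arrays and to -0.38 under the covariate. With the hepatocyte mean as a covariate, Gata1 was lower in mutant IVD than in mutant vertebrae, at a log2 difference of -0.94. Its unadjusted p in limma was 0.00811, with an adjusted p of 0.431. Between mutant and control IVD it was also lower in the mutant, with an unadjusted p of 0.0394 and an adjusted p of 1. In this setting 1 of 15 member probe sets had an unadjusted p under 0.05 in each, against 3192 and 1634 of all 45037. Gata1 read 1.16 in mutant vertebrae 1, against -0.07 and 0.00 in mutant vertebrae 2 and 3.

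In the interaction, the mutant effect in IVD minus that in vertebrae, all 15 probe sets were above 0, with a median of 0.86 (all probe sets, -0.0036). These values share the control arrays and each other's groups, so their common sign is not independent among genes. The lowest was 0.03 for Gata1 and the highest 2.97 for Slc4a1 on 1434502_x_at. Hba-x had the smallest p in limma, 0.246, at 1.31 with a 95% interval of -1.04 to 3.66 and an adjusted p of 1. The median over the fetal liver genes was 0.86, -0.69 without control vertebrae 1, and -0.35 with the hepatocyte mean as a covariate. It was -0.10 without control IVD 2 and -0.34 without the 4 arrays with hepatocyte transcripts. That over the primitive globins was 1.31, with 0.46 without control vertebrae 1, 0.45 under the covariate and 0.62 without the 4 arrays.

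At the level of gene means, 0 of the 49 genes of the 6 further erythroid lists were called by limma in any of the 5 comparisons. The calls over all 18193 genes were 0%, 0%, 0%, 0.0275% and 0% adjusted, and 2.68%, 3.01%, 2.52%, 8.09% and 1.4% unadjusted. Unadjusted, 3 of the 49 genes had a p under 0.05, each between mutant IVD and mutant vertebrae, and these were named after their values were seen. In limma's fit Hba-a2 differed by -0.51 ± 0.21 (log2 difference ± SE), with an unadjusted p of 0.0319 and an adjusted p of 0.539. Aqp1, a water channel of red cells and endothelium, differed by 1.65 ± 0.57, with an unadjusted p of 0.0136 and an adjusted p of 0.419. Prdx2, a peroxidase abundant in red cells, differed by 1.38 ± 0.61, with an unadjusted p of 0.0418 and an adjusted p of 0.593. In mutant against control vertebrae the medians were -0.73 for heme synthesis, -0.69 for the red cell membrane, -1.06 for iron uptake, -0.95 for the enzymes and -0.39 for the transcription factors, but 0.11 for the adult globins, of which 2 of 3 genes were higher in the mutant, against 0.03 over all genes. Control vertebrae 1 enters each of these.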

How the data were processed

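The labels list 13 arrays, on which 50 ng of total RNA per sample was amplified in 2 cycles with oligo dT primers. The authors normalized the array files by RMA at the default settings of GeneSpring, and the deposited values are log2 values relative to the median of each probe set, so that signal over background is not known; the number of arrays limits the precision. A genome build is not given in the sources used here. Of 45101 probe sets, 64 controls were left out; of the 45037 tested, 34945 were annotated to 1 gene, 932 to several and 9160 to none. Groups came from the labels. The 4 groups were fitted together with lmFit and eBayes of limma 3.58.1 in R 4.3.3, p-values were adjusted by Benjamini-Hochberg over all probe sets, and the fit was tested on simulated data. Gene means average all probe sets of a gene. Figures and motif searches used Python 3.11.15. Nothing states that replicate arrays of a group came from separate litters, so p-values measure the spread between these samples.

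The members and gene lists were chosen with earlier results of these data known. Named genes were all members, the first 4 measured genes of each list, the 5 genes most correlated with each class mean, and Tgfbr2; Matn1, Pax1 and Pax9 were named after their values were seen. Of 126 listed genes, 114 were measured. The control samples of each tissue come from the same mice: deviations from group means of same-numbered control arrays correlated at 0.80, 0.57 and 0.57 over all probe sets, and those of mutant arrays at -0.40, 0.24 and -0.15. Alternatives were quantile normalization, replicate blocks, the compared groups alone, a variance trend, array weights, the unequal variance test of the methods, gene means, a hepatocyte covariate and leaving out arrays.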

Additional observations from a re-analysis of the deposited data

How the results depend on the processing

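The count of member probe sets called at an adjusted p under 0.05, 0 of 15 in each of the 5 comparisons, was 0 under every alternative run, including leaving out each array in turn. With the array number as a fixed replicate block it was 0 of 15 in all 5 comparisons, and with the mouse number as a random block in the controls 0 of 15. The numbers of the mutant arrays did not pair them. Over all probe sets, calls in mutant IVD against mutant vertebrae were 7 in the main setting, 0 with the block, 55 with array weights, 29 without the 4 arrays with hepatocyte transcripts and 177 without mutant IVD 3. The unequal variance test gave no value for the interaction, and the random block was fitted for the control tissues alone.

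The class medians depended on single arrays and on other settings. With each array left out they ranged as follows. For the fetal liver genes they ran from -1.84 to 1.14 between control tissues, from -1.36 to 1.28 between mutant and control IVD, from -2.07 to 0.25 between vertebrae and from 0.15 to 1.29 between mutant tissues, and in the interaction from -0.69 to 2.47. For the primitive globins they ran from -1.46 to -0.10, -0.23 to 0.999, -1.45 to -0.47, 0.04 to 1.08 and 0.33 to 1.98 in the same order. With every array kept, the sign of the mutant against control IVD median turned for the fetal liver genes under quantile normalization, to 0.16, and array weights, to 0.59, and for the primitive globins, to -0.09, with the widest-ranging probe set of each gene, an alternative chosen after seeing the data. The hepatocyte covariate turned the fetal liver median to 0.09 between vertebrae, -0.38 between mutant tissues and -0.35 in the interaction, and the primitive median to -0.06 between mutant tissues. The 95% intervals of the members are wide beside these values.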
